A study of Mus musculus with 4 samples.

Results

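Beta-defensins are small cationic secreted peptides held together by disulfide bonds between conserved cysteines, and they kill bacteria and fungi at epithelial surfaces. In mice their genes lie in clusters, and many members are transcribed in the epididymis, the duct beside the fat pad studied here, where the peptides coat maturing sperm. The family was taken as every gene whose symbol begins with Defb and a number in the platform annotation, measured by a probe set with 1 gene symbol. This gave 40 of 18820 genes, with 1 probe set each. They lie on chromosomes 1 (3 genes), 2 (11 genes), 8 (21 genes) and 14 (5 genes), and 1 of them, Defb44-ps, is a pseudogene. The symbols Defb2, Defb9 and Defb12 had no probe set of their own and were not analysed here.

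The tissue was epididymal adipose tissue of mice, profiled on 4 arrays in 3 groups. KO arrays 1 and 2 came from CD1d-/- mice on a low-fat diet (10 kcal% fat), 1 array, written WT HF, came from wild type mice given high-fat food (45 kcal% fat) and 1, written WT LF, from wild type mice on the same low-fat diet as the KO mice. CD1d presents lipids to natural killer T cells. All mice were of the C57BL/6 strain, the null allele having been backcrossed to C57BL/6J for 10 to 12 generations. They ate chow up to an age of 10 to 11 weeks and the assigned diet for 18 to 19 weeks after that. The wild type C57BL/6J mice came from a supplier at 8 weeks of age. Each group's RNA was pooled from 4 to 6 mice, and nothing in the labels tells if KO arrays 1 and 2 came from different pools. The spread behind every p-value may therefore be technical, and each wild type value has no replicate.

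Cd1d1, the disrupted gene, had log2 intensities of 3.74 and 3.98 on KO arrays 1 and 2, against 11.80 on WT HF and 11.80 on WT LF, with a limma adjusted p of 0.00646 for KO against WT LF. The 11 adipocyte markers with a probe set were above the array median on every array, so the defining markers of the labelled tissue were present. Levels below are log2 intensities and differences are log2 differences unless written as a fold. The median over all probe sets was 5.71 on KO array 1, 5.68 on KO array 2, 5.68 on WT HF and 5.70 on WT LF. A level under that median was read as low signal, and a fold that involves one is a lower bound. Levels of different genes were not set against each other, because each rests on its own probe set. The number of arrays limits the precision of every value.

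Most of the family was at low signal, and the members that were not differed in which arrays they were high on. In all, 24 of 40 members were at or under the array median on every array, and 17 of these varied by less than 1.5-fold over the 4 arrays. The other 16 members were above the median on at least 1 array: 4 on KO array 1, 9 on KO array 2, 0 on WT HF and all 16 on WT LF. The heat map of the 40 genes shows which arrays these were.

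**Figure D1:**
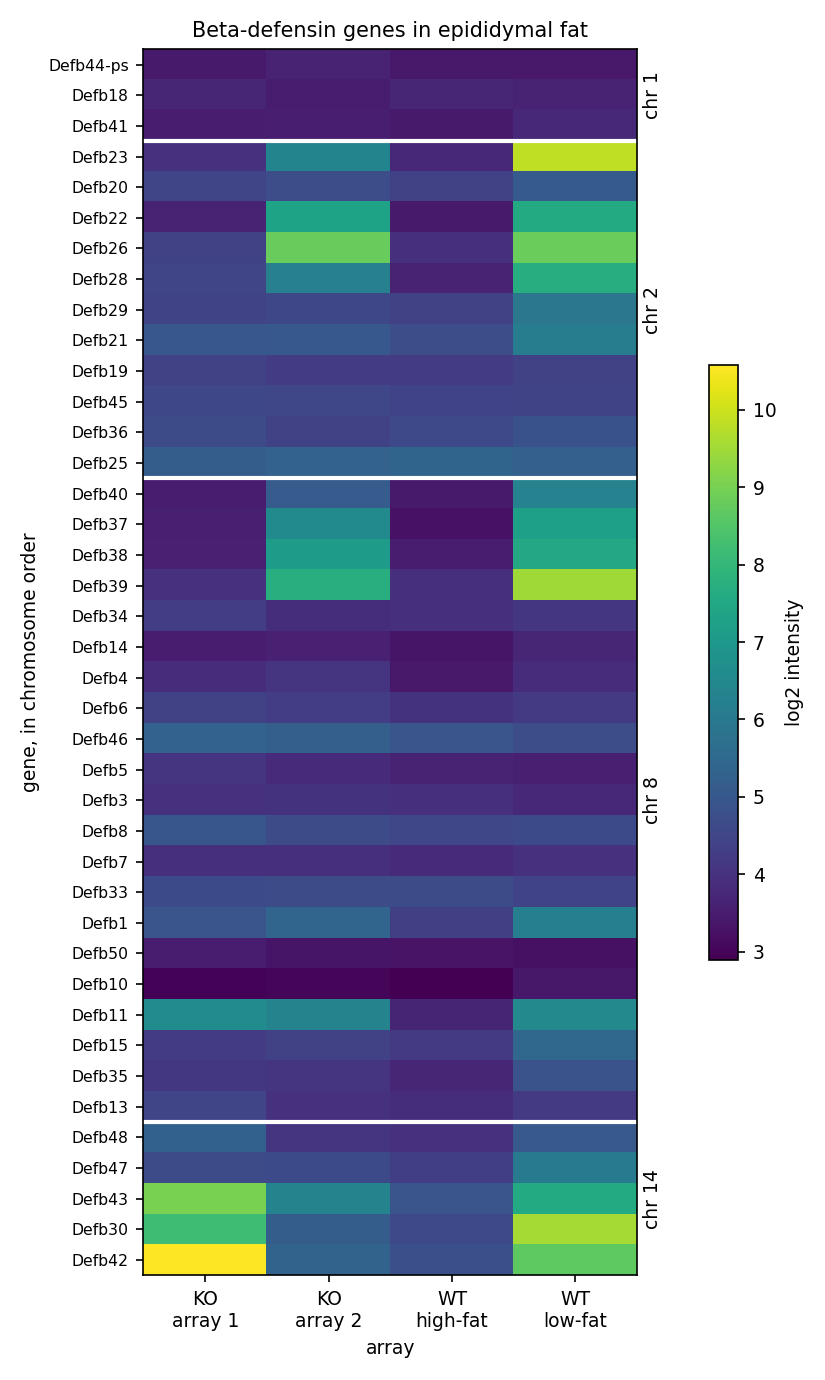
Log2 intensity of the 40 beta-defensin genes (rows, in chromosome order, white lines between chromosomes) on the 4 arrays (columns). The chromosome 14 genes Defb43, Defb30 and Defb42 are bright on KO array 1 and WT LF, a set of chromosome 2 and chromosome 8 genes is bright on KO array 2 and WT LF, and no member on WT HF is above that array's median of 5.68.

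On chromosome 14 the members run in the order Defb48, Defb47, Defb43, Defb30 and Defb42, and 3 of the 5 were high on KO array 1. Defb42, an epididymal gene whose disruption together with Defb23 and Defb26 impairs sperm in rats, was at 10.58 and 5.34 on KO arrays 1 and 2, at 4.77 on WT HF and at 8.69 on WT LF. The WT LF value lay between the KO values. Defb43 was at 9.03 and 6.32 on KO arrays 1 and 2, 4.93 on WT HF and 7.59 on WT LF, so here too the KO arrays lay on both sides of WT LF. Relative to that array, KO array 1 was 3.72-fold higher for Defb42 and 2.72-fold higher for Defb43, while KO array 2 was at least 10.2-fold lower for Defb42 and 2.41-fold lower for Defb43.

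Defb30 was at 8.20 and 5.16 on KO arrays 1 and 2, at 4.59 on WT HF and at 9.56 on WT LF. Both KO arrays were below WT LF, by 2.56-fold on KO array 1 and by at least 21.1-fold on KO array 2. The 2 other genes of this block were chosen after their values were seen. Defb48 was at 5.27 and 4.06 on KO arrays 1 and 2, 3.99 on WT HF and 5.03 on WT LF, which is the same order of high and low arrays as Defb42 but all at low signal. Defb47 was at 4.65 and 4.62 on KO arrays 1 and 2 and 4.33 on WT HF, against 6.07 on WT LF, and so stood out on the last of these alone.

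On chromosome 2 a different set of arrays was high. Defb26 was at 4.40 and 8.81 on KO arrays 1 and 2, at 3.96 on WT HF and at 8.84 on WT LF. KO array 2 was therefore within 1.02-fold of WT LF while KO array 1 was at least 21.7-fold lower. Defb22, which in mice encodes a glycoprotein of the sperm surface coat, was at 3.66 and 7.34 on KO arrays 1 and 2, 3.45 on WT HF and 7.59 on WT LF. It had the same arrays high and low as Defb26, its next neighbour among the members.

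Defb28 was at 4.51 and 6.25 on KO arrays 1 and 2, at 3.67 on WT HF and at 7.67 on WT LF. Defb23 was at 4.00 and 6.37 on KO arrays 1 and 2, at 3.77 on WT HF and at 9.84 on WT LF. Both genes were lower on both KO arrays than on WT LF, Defb23 by at least 57.2-fold on KO array 1 and by 11.0-fold on KO array 2. The remaining 7 of the 11 members on this chromosome were within 1.5-fold of each other on the KO arrays. Among these, chosen after their values were seen, Defb29, which attracts dendritic cells in mouse tumours, was at 4.47 and 4.56 on KO arrays 1 and 2 and at 4.42 on WT HF, against 5.93 on WT LF. Defb21 was at 4.98 and 5.01 on KO arrays 1 and 2 and at 4.72 on WT HF, against 6.12 on WT LF, so these 2 genes were above the median on WT LF alone.

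On chromosome 8, Defb40, Defb37, Defb38 and Defb39 follow each other among the members. The last 3 were high and low on the same arrays as Defb26, while Defb40 was above the median on WT LF alone. All 4 were described in mice as epididymal defensins expressed in particular regions of the duct. Defb39 was at 3.98 and 7.75 on KO arrays 1 and 2, 3.95 on WT HF and 9.48 on WT LF. Defb38 was at 3.60 and 7.10 on KO arrays 1 and 2, 3.51 on WT HF and 7.55 on WT LF. Relative to WT LF, KO array 1 was at least 45.3-fold lower for Defb39 and at least 15.5-fold lower for Defb38, while KO array 2 was 3.33-fold and 1.36-fold lower.

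Defb37 was at 3.56 and 6.56 on KO arrays 1 and 2, 3.27 on WT HF and 7.22 on WT LF. Defb40 was at 3.51 and 5.14 on KO arrays 1 and 2, 3.45 on WT HF and 6.31 on WT LF. Defb37 was low on KO array 1 and WT HF, and Defb40 was under the median on those and on KO array 2.

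Farther along chromosome 8 lies another stretch of the cluster, and deletion of a block of chromosome 8 beta-defensin genes makes male mice infertile. Defb11, in this stretch, was at 6.61 and 6.33 on KO arrays 1 and 2 (KO mean 6.47 ± 0.20, SD, n = 2), at 3.70 on WT HF and at 6.52 on WT LF. WT HF alone was low, and the KO arrays lay on both sides of WT LF. Defb1, a constitutive defensin of kidney and other epithelia, was at 4.92 and 5.40 on KO arrays 1 and 2, 4.34 on WT HF and 6.23 on WT LF. In the same stretch Defb15 and Defb35, named after their values were seen, were at 4.21 to 5.48 and at 3.73 to 4.87 over the 4 arrays, each with WT LF highest.

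The inducible members of chromosome 8 were at low signal throughout. Defb14 and Defb4, the mouse counterparts of human inducible defensins of skin and airway that act on the chemokine receptor CCR6, were at 3.32 to 3.72 and at 3.41 to 4.09 over the 4 arrays. Defb3, inducible in the mouse airway, was at 3.79 to 4.01. All 3 genes of chromosome 1 stayed within 1.5-fold, among them Defb41 (3.46 to 3.78), a defensin of the first part of the epididymis.

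**Figure D2:**
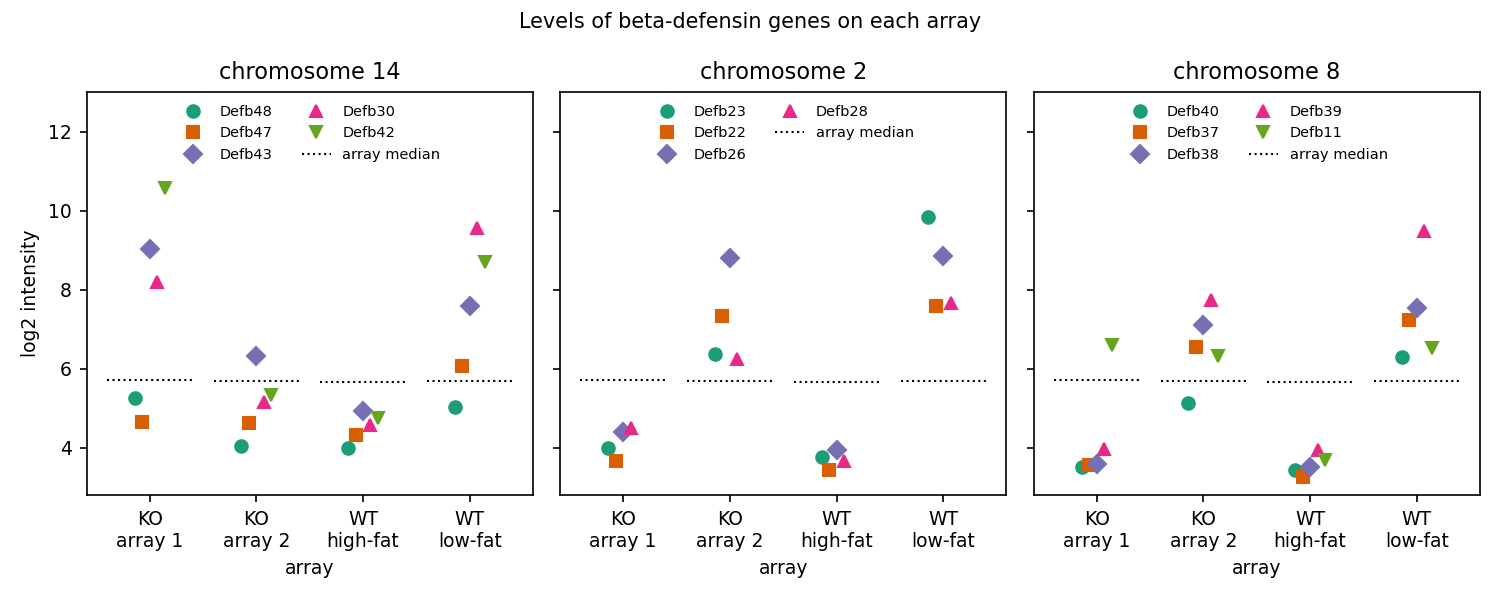
Log2 intensity (vertical axis) of 14 beta-defensin genes on each of the 4 arrays, with 1 panel per chromosome. Each point is 1 gene on 1 array and the dotted lines are the array medians over all probe sets. Defb42, Defb43 and Defb30 of chromosome 14 are high on KO array 1 and the genes of chromosome 2 are high on KO array 2, while Defb11 of chromosome 8 is high on both.

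The promoters of 5 of these genes are shown because they stand for different sets of arrays. Members above the median on WT LF alone, such as Defb40, are not among the 5. Defb30 and Defb42 stand for the chromosome 14 block, Defb26 for chromosome 2, and Defb39 for itself, Defb37 and Defb38 on chromosome 8. Defb11 stands for a gene above the median on both KO arrays, as Defb43 also was. Each runs 5′ to 3′ on the gene's strand from 250 bases before the start of the gene to 50 bases after it, from RefSeq on GRCm38.p6. Capitals mark AGAACA or its reverse complement TGTTCT, the half-site bound by the androgen receptor, which drives many epididymal genes.
Defb30, chr14:63037797-63038096, minus strand: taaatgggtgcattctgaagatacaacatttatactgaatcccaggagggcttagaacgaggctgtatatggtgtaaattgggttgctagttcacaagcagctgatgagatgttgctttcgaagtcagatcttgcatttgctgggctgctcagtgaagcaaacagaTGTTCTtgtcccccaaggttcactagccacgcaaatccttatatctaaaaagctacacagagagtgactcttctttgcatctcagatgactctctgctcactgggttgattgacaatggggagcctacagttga
Defb42, chr14:63046741-63047040, plus strand: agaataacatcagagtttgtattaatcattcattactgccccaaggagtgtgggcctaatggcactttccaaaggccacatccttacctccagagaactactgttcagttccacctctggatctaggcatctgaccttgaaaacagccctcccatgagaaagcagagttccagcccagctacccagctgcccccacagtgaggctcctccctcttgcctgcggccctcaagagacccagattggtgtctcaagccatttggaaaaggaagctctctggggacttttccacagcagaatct
Defb26, chr2:152511687-152511986, minus strand: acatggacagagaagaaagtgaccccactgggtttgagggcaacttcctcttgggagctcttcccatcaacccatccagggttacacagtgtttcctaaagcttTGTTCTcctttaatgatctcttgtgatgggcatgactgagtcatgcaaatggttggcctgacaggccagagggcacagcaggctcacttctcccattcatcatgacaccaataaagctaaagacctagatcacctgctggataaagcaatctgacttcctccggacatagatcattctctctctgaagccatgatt
Defb39, chr8:19064872-19065171, minus strand: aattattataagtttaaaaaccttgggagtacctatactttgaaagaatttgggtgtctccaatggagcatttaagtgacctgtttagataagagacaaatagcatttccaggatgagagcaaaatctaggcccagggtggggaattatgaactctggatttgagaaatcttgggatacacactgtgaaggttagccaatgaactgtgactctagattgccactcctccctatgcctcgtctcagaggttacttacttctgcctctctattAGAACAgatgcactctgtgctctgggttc
Defb11, chr8:21906383-21906682, minus strand: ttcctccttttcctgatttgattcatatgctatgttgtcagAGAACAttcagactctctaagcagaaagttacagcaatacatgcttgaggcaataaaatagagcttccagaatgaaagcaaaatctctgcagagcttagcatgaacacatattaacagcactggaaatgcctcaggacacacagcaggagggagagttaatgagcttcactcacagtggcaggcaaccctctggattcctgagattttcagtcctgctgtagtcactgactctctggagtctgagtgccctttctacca

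Defb30, Defb26, Defb39 and Defb11 each held 1 such half-site in this window and Defb42 held 0. Promoters were found for 28 of the 40 members, 29 windows in all, and not for Defb1, Defb4, Defb14, Defb18, Defb19, Defb25, Defb34, Defb35, Defb37, Defb40, Defb44-ps and Defb50. AGAACA on either strand was present in 18 of the 29 windows (62.1%), against 19.0% of 32851 promoter windows of the same length. Some members share sequence around the match, such as Defb3, Defb46 and Defb8, or Defb10 and Defb11. The 29 windows are therefore not independent, and the difference in share was not tested. It was present in 8 of 13 members above the array median on at least 1 array and in 10 of 15 members at low signal on every array. The letters TATAAA, those of the TATA box, stood on either strand in 17.2% of the members' windows, against 13.6% of all windows. AGGAAG, an ETS-type site, stood on either strand in 37.9% of the members' windows, against 35.4% of all. None of the 3 motifs contains another, and a match describes the sequence and is no measured site.

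The first comparison asks how the family differed in fat without CD1d on the low-fat diet. Read over both KO arrays, 12 of 40 members were at least 1.5-fold lower than on WT LF and 0 were higher, beside 0.675% and 0.850% of all 18820 genes. The 12 were Defb23, Defb28, Defb39, Defb30, Defb37, Defb40, Defb1, Defb47, Defb29, Defb21, Defb15 and Defb35, of which the last 5 were named after their values were seen. In this bulk tissue, fewer cells of a type and less RNA per cell cannot be told apart. Of the 12, Defb15 and Defb35 were under the median on every array, and the count was 6 with levels under the array median raised to it. The median difference of the 40 members from WT LF was −0.12 on KO array 1 and −0.24 on KO array 2, beside −0.07 and −0.01 for all genes.

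By array, 16 members were at least 1.5-fold lower and 3 higher on KO array 1, beside 3.51% and 3.38% of all genes, and the 3 higher were Defb42, Defb43 and Defb46. On KO array 2, 15 members were lower and 0 higher, beside 3.44% and 4.43% of all genes. Defb46, named after its values were seen, had levels of 5.32 and 5.23 on KO arrays 1 and 2 and 4.94 on WT HF, against 4.73 on WT LF, all at low signal.

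Of the 40 members, 9 had a mean level over the 4 arrays that passed the filter for testing, and they did so through the arrays on which they were high. The 9 were Defb11, Defb22, Defb23, Defb26, Defb28, Defb30, Defb39, Defb42 and Defb43. In limma, 0 of the 9 passed the adjusted threshold of 0.05, beside 0.0443% of the 11292 genes tested, and 4 of the 9 (Defb23, Defb28, Defb30 and Defb39) had an unadjusted p under 0.05, beside 0.815% of genes tested. Defb23 had a difference of −4.65 with a standard error of 0.92, lower on 2 of 2 KO arrays, with a limma adjusted p of 1. For Defb39 the difference was −3.62 (SE 1.41) and for Defb42 it was −0.73 (SE 1.94), each with a limma adjusted p of 1. Among genes past the filter, 4 of the 9 members were at least 1.5-fold lower on both KO arrays, beside 0.770% of such genes. Only the KO pair gave the fit a residual degree of freedom, 1 in all, and the standard errors hold the gap between those arrays. Fitted without the filter, 0 of 40 members passed in limma, beside 0.00% of all genes, and 8 of 40 had an unadjusted p under 0.05, beside 282 of 18820 genes.

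The KO arrays share genotype and diet, and 12 of 40 members were at least 1.5-fold apart between them, beside 13.7% of all genes. KO array 2 was at least 1.5-fold higher than KO array 1 for 8 of 40 members and lower for 4, beside 9.69% and 4.00% of all genes. Of the 9 members past the filter, which passed through the arrays on which they were high, 5 were higher and 3 lower, beside 14.8% and 4.45% of genes past it. The 8 higher were the 4 chromosome 2 genes Defb22, Defb23, Defb26 and Defb28 and the 4 chromosome 8 genes Defb37, Defb38, Defb39 and Defb40. The 4 lower were Defb30, Defb42, Defb43 and Defb48, all of chromosome 14. Over the 5 chromosome 14 members the difference of KO array 2 minus KO array 1 had a median of −2.71 and ran from −5.25 to −0.03, and no member of the other chromosomes was at least 1.5-fold lower on KO array 2. The blocks were noticed in these values, so no test was made of them.

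The second comparison asks how the family differed between the diets in wild type fat, with 1 array each and so no test. Of the 40 members, 20 were at least 1.5-fold lower on WT HF than on WT LF and 0 were higher, beside 3.13% and 5.38% of all genes. This comparison and the first share the single WT LF array, so their counts are not separate findings. Of the 16 members above the array median on at least 1 array, 13 were highest on WT LF. Of the 20, Defb15, Defb20, Defb35 and Defb48 were under the median on both wild type arrays, and the count was 12 with levels under the array median raised to it. By chromosome the 20 were 5 of 5 on chromosome 14, 7 of 11 on chromosome 2, 8 of 21 on chromosome 8 and 0 of 3 on chromosome 1. The median difference of the 40 members was −0.59, beside 0.01 for all genes. With every high-fat level under the array median, the folds are lower bounds: at least 29.5-fold for Defb26, 15.2-fold for Defb42, 17.6-fold for Defb22, 16.4-fold for Defb38 and 7.07-fold for Defb11. Of the 9 members past the filter, which passed through the arrays on which they were high, 9 were lower, beside 3.82% of genes past it. Defb1 was at least 3.69-fold lower and Defb43 at least 6.33-fold lower.

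**Figure D3:**
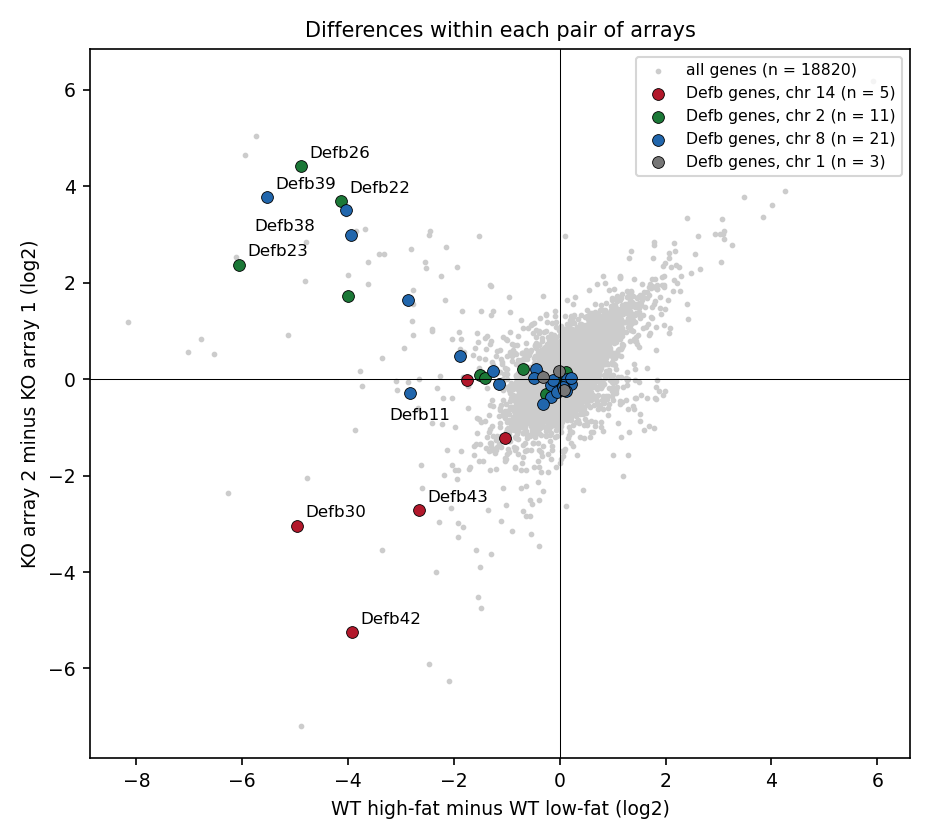
Log2 difference between the KO arrays (vertical axis, KO array 2 minus KO array 1) against the log2 difference between the wild type arrays (horizontal axis, high-fat minus low-fat) for all 18820 genes in grey and for the 40 beta-defensin genes coloured by chromosome. The chromosome 14 genes lie at or below 0 on the vertical axis, the separated chromosome 2 and 8 genes mostly above it, and all of them left of 0 on the horizontal axis.

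The third contrast sets KO fat on the low-fat diet against wild type fat on the high-fat diet, in which genotype and diet differ together and cannot be told apart. It shares the KO arrays with the first comparison and the high-fat array with the second. Defb11, Defb28 and Defb43 were at least 1.5-fold higher on both KO arrays than on WT HF, 3 of 40 members beside 1.24% of all genes, and 0 members were lower on both, beside 0.680%. Defb28 was under the median on KO array 1 and WT HF, and 2 members in place of 3 were higher with levels under the array median raised to it. The count was 12 with KO array 1 left out and 7 with KO array 2 left out. In limma 0 of the 9 members tested passed, beside 0.00886% of genes tested, and 2 of 9 (Defb11 and Defb43) had an unadjusted p under 0.05, beside 1.12%. The 9 passed the filter through the arrays on which they were high, and WT HF was not one of these for any member. Defb11 had a difference of 2.77 with a standard error of 0.32, higher on 2 of 2 KO arrays, with a limma adjusted p of 0.445. Fitted without the filter, 1 of 40 members (Defb11) had an unadjusted p under 0.05, beside 1.72% of all genes. On at least 1 KO array, 16 of 40 members were higher than on WT HF, beside 6.54% of all genes. Of the 16, Defb1, Defb4, Defb40, Defb48 and Defb13, the last named after its values were seen, were under the median on both KO arrays and WT HF.

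Other genes of the epididymis were measured beside the family. Of 30 epididymal epithelium markers with a probe set, 13 were at least 1.5-fold lower than WT LF on both KO arrays and 0 higher. For all genes these shares were 0.675% and 0.850%. WT HF was lower than WT LF for 16 of the markers and higher for 1, beside 3.13% and 5.38% of all genes. The higher marker was Svs2, at 8.59 against 7.40. Aqp9 was higher than WT LF in the first KO array alone, at 7.18 against 6.36. Both genes were named after their values were seen. In limma 4 of the 14 tested were called lower in KO fat than in WT LF fat and 0 higher, beside 0.0443% of genes tested. These were Spint4, Spint5, Epp13 and Lcn5. Each was lower on WT HF than on either KO array, at 3.19, 4.22, 5.03 and 4.32 in that order. On WT LF they were at 11.35, 10.75, 11.80 and 11.34, so the calls rest on that single array. Of the 4 calls, 0 were kept with no filter, with the filter at the 60th percentile (2 markers tested) and with median centring, 2 (Lcn5 and Spint5) with quantile normalization and with the mean of a gene's probe sets, 3 with robust eBayes and with the filter at the 20th percentile, and 4 with a trended eBayes. The list was chosen with earlier results of these data known. The summed log2 level of the 30 markers was 138 on KO array 1, 155 on KO array 2, 129 on WT HF and 206 on WT LF, and 4, 10, 2 and 17 of the 30 were above the median on those arrays, in the same sequence.

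As with the defensins, the arrays that were high differed from gene to gene. KO array 2 was at least 1.5-fold higher than KO array 1 for 10 of the 30 markers and lower for 3. For all genes these shares were 9.69% and 4.00%. The 3 lower were Spink11, Aqp9 and Svs2. Adam7, Spink11, Wfdc10 and Gpx5 were named after their values were seen and do not show how common each pattern was. Adam7, a sperm-maturation protein of the epididymis, was at 3.68 and 8.71 on KO arrays 1 and 2, 3.60 on WT HF and 9.35 on WT LF, which are the arrays high and low for Defb26. Spink11, a protease inhibitor gene, was at 6.25 and 3.89 on KO arrays 1 and 2, 3.35 on WT HF and 9.62 on WT LF, which are those of Defb30. Wfdc10 was at 9.08 and 10.00 on KO arrays 1 and 2, 5.37 on WT HF and 10.51 on WT LF, low on the high-fat array alone as Defb11 was. Gpx5, a defining enzyme of the first part of the epididymis, was at low signal on all 4 arrays, from 3.69 to 4.06. Spag11a, an epididymal gene of beta-defensin type under another symbol, was at 5.26 and 5.30 on KO arrays 1 and 2 and 5.15 on WT HF, against 6.99 on WT LF.

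General epithelial markers had their highest summed level on KO array 1. Of the 9, 5 were at least 1.5-fold higher and 1 lower on KO array 1 than on WT LF, beside 3.38% and 3.51% of all genes. On KO array 2, 0 were higher and 2 lower, beside 4.43% and 3.44%. On WT HF, 0 were higher and 7 lower, beside 5.38% and 3.13%. Their summed log2 level was 66.4 on KO array 1, 59.1 on KO array 2, 52.7 on WT HF and 62.2 on WT LF. The epithelial adhesion gene Epcam was at 6.88 and 6.02 on KO arrays 1 and 2, 4.57 on WT HF and 5.98 on WT LF. Of the 7 testis and sperm markers, 3 were at least 1.5-fold higher on KO array 1 than on WT LF, beside 3.38% of all genes. On KO array 2, 0 were higher and 2 lower, beside 4.43% and 3.44%. Their summed levels were 46.9, 38.0, 43.2 and 41.2 on KO arrays 1 and 2 and WT HF and WT LF. The part that any of these cell types has in the defensin values was not tested.

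Antimicrobial genes outside the family, receptors and inducers were counted the same way. Of 29 other antimicrobial genes with a probe set, 0 were at least 1.5-fold lower and 2 higher on both KO arrays than on WT LF. For all genes these shares were 0.675% and 0.850%. On WT HF 2 were lower and 2 higher, beside 3.13% and 5.38% of all genes. Hamp, which encodes the iron hormone hepcidin, was at 6.50 and 4.93 on KO arrays 1 and 2 and 5.31 on WT HF, against 4.32 on WT LF. Its level was under the array median on every array except KO array 1. The alpha-defensins Defa31, Defa39 and Defa24, the 3 with a probe set, had median differences from WT LF of 0.33 and −0.55 on KO arrays 1 and 2 and of −0.36 on WT HF. Of 13 receptors and ligands tied to defensin signalling, 0 were at least 1.5-fold higher and 0 lower on both KO arrays than on WT LF. For all genes these shares were 0.850% and 0.675%. On WT HF 3 were higher than on WT LF, beside 5.38% of all genes. Ccl2, a ligand of the receptor CCR2, was at 6.81 and 8.48 on KO arrays 1 and 2 and 8.82 on WT HF, against 7.79 on WT LF. Of 13 inducers and regulators of defensin genes, 1 was higher and 0 lower on WT HF, beside 5.38% and 3.13% of all genes. The higher was Il1r1, the interleukin-1 receptor gene, at 7.53 and 8.06 on KO arrays 1 and 2 and 7.98 on WT HF, against 7.36 on WT LF. In these lists limma placed 0 genes past the threshold in KO fat relative to WT LF fat.

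Of 9 neutrophil markers, 1 was at least 1.5-fold higher and 1 lower on both KO arrays than on WT LF, beside 0.850% and 0.675% of all genes. The higher was S100a8, at 6.66 and 7.56 on KO arrays 1 and 2 and 6.45 on WT HF, against 5.88 on WT LF. The lower was Mmp9, at 6.62 and 6.39 on KO arrays 1 and 2 and 6.92 on WT HF, against 7.57 on WT LF. Of the 7 macrophage markers, 6 were at least 1.5-fold higher on KO array 2 than on KO array 1, beside 9.69% of all genes and 14.8% of genes past the filter. On WT HF 5 were higher than on WT LF, beside 5.38% of all genes. Squamous epithelium markers, 8 with a probe set, were 0 to 1 of 8 above the median on each array. The 11 adipocyte markers had median differences from WT LF of 0.01 and −0.01 on KO arrays 1 and 2 and of −0.06 on WT HF.

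**Figure D4:**
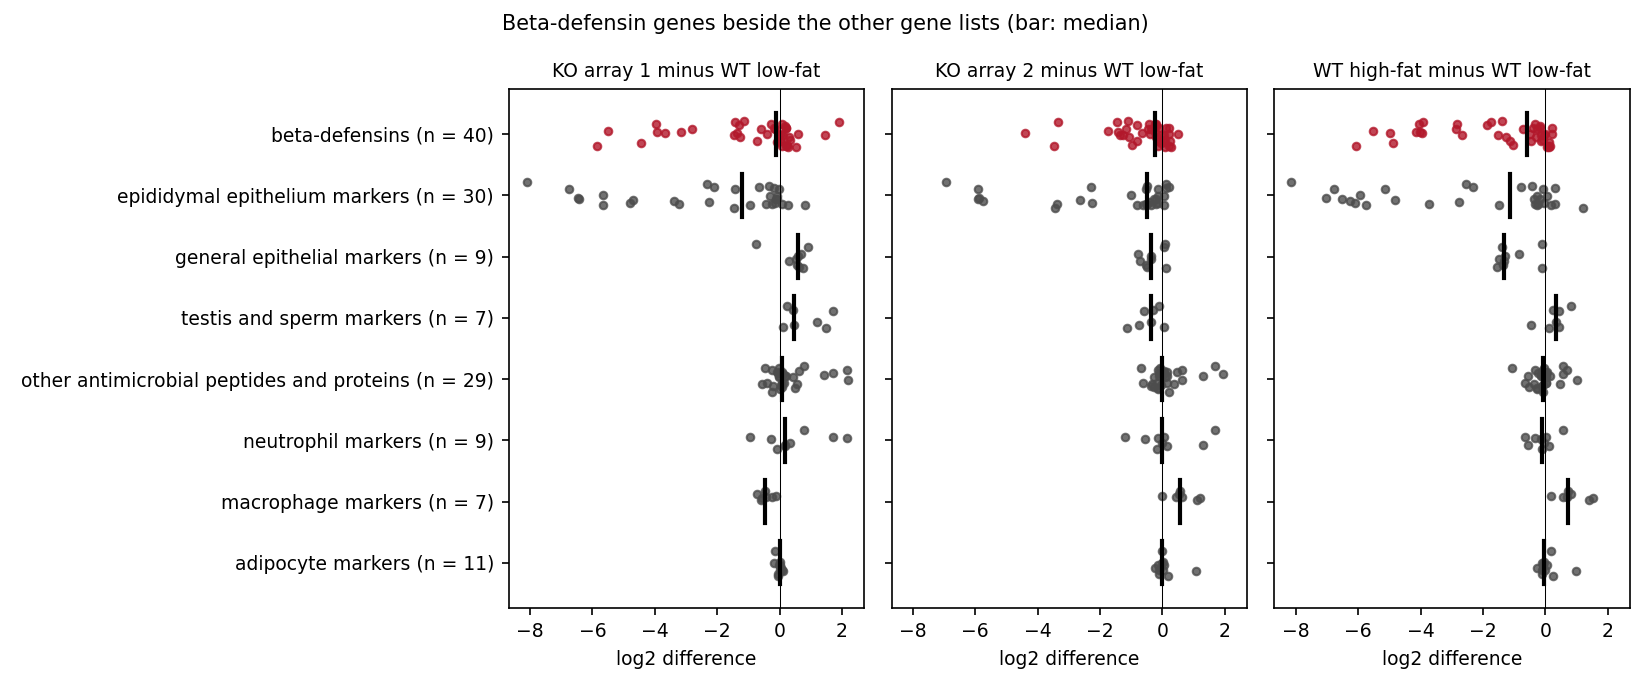
Log2 difference from WT LF (horizontal axis) in 3 panels, for KO arrays 1 and 2 and for WT HF, over the 40 beta-defensin genes (red) and 7 other gene lists (grey), with each point 1 gene and the bar the median. The lowest beta-defensin lies at −5.84, −4.40 and −6.06 in the 3 panels, while the adipocyte medians lie at 0.01, −0.01 and −0.06, with 1 adipocyte gene, Lep, at 1.08 on KO array 2 and 0.99 on WT HF.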

How the data were processed

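RNA of epididymal fat was measured on 4 arrays. For each array the authors deposited linear intensities of probe sets, and the submitters' processing notes name RMA and R 2.15.0. The genome build of the probe sets is not given in the sources used here. Tests had been laid out for log2 values, so the deposited intensities were turned into log2, with no further normalization. Of 35556 probe sets, 21218 had 1 gene symbol, 1881 several and 12457 none listed. A gene with several probe sets was read from the one with the highest mean, which left 18820 genes; 11292 with a mean log2 level of at least 5.45, the 40th percentile, were tested. All 40 member symbols matched the RefSeq gene table of GRCm38.p6, used for chromosome and gene order.

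KO was compared with each wild type group in limma 3.58.1 (R 4.3.3), with a mean per group, eBayes without trend, two-sided tests and Benjamini-Hochberg adjustment over all genes tested. The prior had 4.62 degrees of freedom and an SD of 0.28. Counts by size used 1.5-fold. The steps were tested on simulated data. The members and lists were chosen with earlier results of these data known. Named members were those past the filter, the 12 with the largest range over the arrays, and Defb1, Defb3, Defb4 and Defb14; of each other list, up to 4 genes with the largest difference between the wild type arrays were eligible. Figures used matplotlib 3.10.9 in Python 3.11.15.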

Additional observations from a re-analysis of the deposited data

How the results depend on the processing

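With levels under the array median raised to it, 6 members in place of 12 were at least 1.5-fold lower on both KO arrays than on WT LF, 12 in place of 20 were lower on WT HF, and the median differences of the 40 members were −0.0026 for KO and −0.0225 for high-fat, since most members then sit at the floor. Among the 9 members past the filter these counts were 4 and 9, the medians −2.24 and −4.14, and 5 in place of 8 were higher on KO array 2 than on KO array 1. The 9 passed through the arrays on which they were high, WT LF among them for all 9, so these values are no separate support. Without KO replicate 1 or 2 the counts ranged from 15 to 16 lower than on WT LF, from 0 to 3 higher than on it and from 7 to 12 higher than on WT HF, and the median from −0.24 to −0.12. Without KO replicate 1 or 2 the difference from WT LF was −3.35 or 1.89 for Defb42 (−0.73 with both), −1.27 or 1.44 for Defb43 (0.09), −0.03 or −4.44 for Defb26 (−2.24) and −0.25 or −3.93 for Defb22 (−2.09), so the sign for Defb42 and Defb43 and the size for Defb26 and Defb22 rest on which KO array is kept. A 2-fold threshold, the mean of a gene's probe sets, median centring and quantile normalization kept each of these counts within 1.5 times. Under the mean of probe sets, median centring and quantile normalization, 47 single-member values of KO against WT LF and 46 of WT HF against WT LF moved by less than the KO spread, and 1 and 2, all of Defb3, moved by more. With 1 probe set each, the mean of probe sets could not move a member. The KO spread differed widely, with an SD of 3.71 for Defb42 and 0.008 for Defb3, so this tally is a loose check. Members called by limma stayed at 0 in all settings run, while the 5 genes called in KO against WT LF fat became 0 with no filter (282 at an unadjusted p under 0.05), 2 with the filter at the 60th percentile, 3 with the mean of the probe sets, 3 with quantile normalization and 1 with median centring, an alternative chosen after seeing the data, as were those for the counts between the KO arrays and against WT HF; the cause was not tested. With a KO array left out limma has no residual degree of freedom and gives no test. No paired analysis was possible because the wild type groups have 1 array each and share no second replicate number with the KO group.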
